A study of Mus musculus with 4 samples.

Results

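Genes that act in DNA replication and at entry into S phase were examined in J774 cells, a mouse monocyte-macrophage line, after proteasome inhibition. The set held 37 genes out of 20133 named genes on the array. Its members were chosen by their known roles, with earlier results of these data known. It comprised 10 licensing genes, 6 genes of helicase activation, 6 of polymerase and primase, 6 of the sliding clamp and its loader, 2 of Okazaki fragment joining, 4 of nucleotide synthesis and 3 of S-phase entry. A probe belonged to the set when its transcript accession carried 1 of these symbols in RefSeq. All 37 genes had a probe, 41 probes in all, because *Ccne1*, *Cdc6*, *Pole* and *Rfc4* had 2 each.

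The cells (J774.1 in the labels) were grown for 4 hours with the solvent DMSO or with 1 µM of a proteasome inhibitor, and the RNA of each condition was measured on 1 single-color array. The inhibitors were MG132, epoxomicin and ONX0914, the last of which the protocol describes as directed at the β5 and β5i subunits. The treatment field of the ONX array names ONX-0912, so that the compound rests on the treatment protocol, and the array is called ONX0914 here. All cells shared the line and medium, and the DMSO array was the control for every inhibitor. With 1 array per condition there was no replicate spread and no test, and each difference compares 2 arrays.

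DNA replication is prepared in G1, when the origin recognition complex, Cdc6 and Cdt1 load the Mcm2 to Mcm7 helicase onto origins, a step called licensing. In S phase Cdc45, the GINS complex and Mcm10 activate the helicase, DNA polymerase α with primase starts the strands, and the polymerases δ and ε extend them on the sliding clamp Pcna. Many of these genes are transcribed under E2F factors around the entry into S phase, and cyclin E with its kinase drives that entry.

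Promoters were read from RefSeq (GRCm38.p6), 250 bases before to 50 after each transcription start, and were listed for 29 of the 37 genes. They were searched on both strands for the E2F-type letters TTTCCCGC, TTTGGCGC and the looser TTTNNCGC, which contains the other two. TTTNNCGC was found in a promoter of 13 of the 29 genes (44.8%), against 5.93% of the 27025 genes in the table. TTTCCCGC was found in 6 (20.7%, against 1.24%) and TTTGGCGC in 5 (17.2%, against 0.585%). The licensing genes held most of these matches, with TTTNNCGC in 7 of 9, against 2 of 4 polymerase and primase genes and 1 of 4 nucleotide synthesis genes. The promoters of *Mcm3*, at chr1:20820263-20820562 (minus strand), and *Mcm6*, at chr1:128359656-128359955 (minus strand), are shown as licensing genes with several matches, which are in capitals. The promoters of *Ccne1*, at chr7:38107441-38107740 (minus strand), *Tk1*, at chr11:117825965-117826264 (minus strand), and *Rrm2*, at chr12:24708004-24708303 (plus strand), are shown as the genes whose RNA was lowest relative to DMSO under MG132 and epoxomicin. Under ONX0914 *Fen1* lay below *Tk1*. The promoters of *Ccne1*, *Tk1* and *Rrm2* held none of these letters in the window.
Mcm3 promoter: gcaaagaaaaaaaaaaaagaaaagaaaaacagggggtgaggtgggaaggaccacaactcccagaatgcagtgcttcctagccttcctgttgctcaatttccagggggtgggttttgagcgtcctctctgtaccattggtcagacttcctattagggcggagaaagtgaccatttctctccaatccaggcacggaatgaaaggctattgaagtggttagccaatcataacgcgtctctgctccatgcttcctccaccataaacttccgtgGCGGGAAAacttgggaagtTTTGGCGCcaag
Mcm6 promoter: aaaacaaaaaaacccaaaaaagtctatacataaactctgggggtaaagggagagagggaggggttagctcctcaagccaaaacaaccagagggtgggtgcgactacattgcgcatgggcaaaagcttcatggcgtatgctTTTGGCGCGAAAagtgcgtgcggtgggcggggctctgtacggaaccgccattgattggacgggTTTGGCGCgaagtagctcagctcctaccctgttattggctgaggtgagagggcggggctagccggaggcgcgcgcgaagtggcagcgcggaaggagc
Ccne1 promoter: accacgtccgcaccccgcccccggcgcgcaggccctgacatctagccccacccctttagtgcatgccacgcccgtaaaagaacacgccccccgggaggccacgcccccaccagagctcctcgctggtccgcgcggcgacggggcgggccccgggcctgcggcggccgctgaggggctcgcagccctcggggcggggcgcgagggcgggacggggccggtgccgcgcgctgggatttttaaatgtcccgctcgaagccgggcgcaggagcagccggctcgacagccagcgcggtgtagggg
Tk1 promoter: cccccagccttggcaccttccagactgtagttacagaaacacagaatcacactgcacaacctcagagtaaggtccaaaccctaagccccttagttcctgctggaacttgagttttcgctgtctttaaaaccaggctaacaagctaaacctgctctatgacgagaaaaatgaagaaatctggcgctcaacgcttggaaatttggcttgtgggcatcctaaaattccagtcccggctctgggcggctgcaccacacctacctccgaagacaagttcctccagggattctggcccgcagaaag
Rrm2 promoter: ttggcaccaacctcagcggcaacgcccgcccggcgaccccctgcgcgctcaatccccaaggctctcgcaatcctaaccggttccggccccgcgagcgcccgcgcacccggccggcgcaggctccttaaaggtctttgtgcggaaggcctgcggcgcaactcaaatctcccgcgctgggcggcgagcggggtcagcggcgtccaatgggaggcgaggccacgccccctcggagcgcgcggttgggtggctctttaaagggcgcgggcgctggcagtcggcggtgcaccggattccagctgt
A match is a run of letters and not a bound site. The matches in *Mcm6* began at positions −110, −106 and −47, counted back from the start site, the first 2 of them overlapping. Those in *Mcm3* began at positions 20 and 39, with the start site as position 1.

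Of the 37 genes, 36 were well above background on all 4 arrays. The exception was *Ccne2*, a cyclin E gene, whose signals of 14.5 under DMSO, 5.29 under MG132, 14.0 under epoxomicin and 14.7 under ONX0914 were not well above background on any array. Differences are given as log2 of the processed signal after each array's 75th percentile was subtracted, so that 1 is a 2-fold difference. Values in a series without array names follow the order MG132, epoxomicin and ONX0914, after DMSO where signals are given. Repeated spots of a probe within an array gave such a difference a standard deviation of 0.09 (log2). That figure covers spot error only, and not the variation between cultures. In bulk RNA, fewer cells in S phase and less RNA per cell cannot be told apart.

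Most replication genes lay near their DMSO level, and those at least 2-fold lower on some array were *Ccne1* and the nucleotide synthesis genes *Tk1* and *Rrm2*. The median of the 36 genes was −0.13 under MG132, 0.05 under epoxomicin (−0.03 after a shift to each array's median) and −0.15 under ONX0914, beside −0.02, −0.04 and −0.01 over all genes compared. After normexp background correction fitted on all spots, the members' medians were −0.11, 0.05 and −0.08. Those of all genes were then −0.28, −0.30 and −0.17, so that the order under MG132 and ONX0914 was reversed. With MG132, 3 of 36 (8.33%) were at least 2-fold lower, beside 3.68% of all 13771 genes, and none was 2-fold higher, beside 7.24%. With epoxomicin, 2 of 36 (5.56%) were at least 2-fold lower, beside 4.4% of 13864 genes, and 1 (2.78%) was higher, beside 8.48%. With ONX0914, 1 of 36 (2.78%) was at least 2-fold lower, beside 1.4% of 13790 genes, and none was higher, beside 3.27%. At 1.5-fold, 4, 4 and 2 genes were lower under MG132, epoxomicin and ONX0914, that is 11.1%, 11.1% and 5.56%, beside 12.9%, 14.3% and 5.17% of all genes. At the same threshold 1, 2 and 0 genes were higher, beside 14.9%, 16.5% and 7.64%. Within 1.5-fold of DMSO lay 31 of 36 genes under MG132, 30 under epoxomicin and 34 under ONX0914. Most of all genes compared did so too, 9934 of 13771, 9590 of 13864 and 12023 of 13790. The counts of lower genes are small, and at 1.5-fold they lay close to or below the share over all genes.

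**Figure D1:**
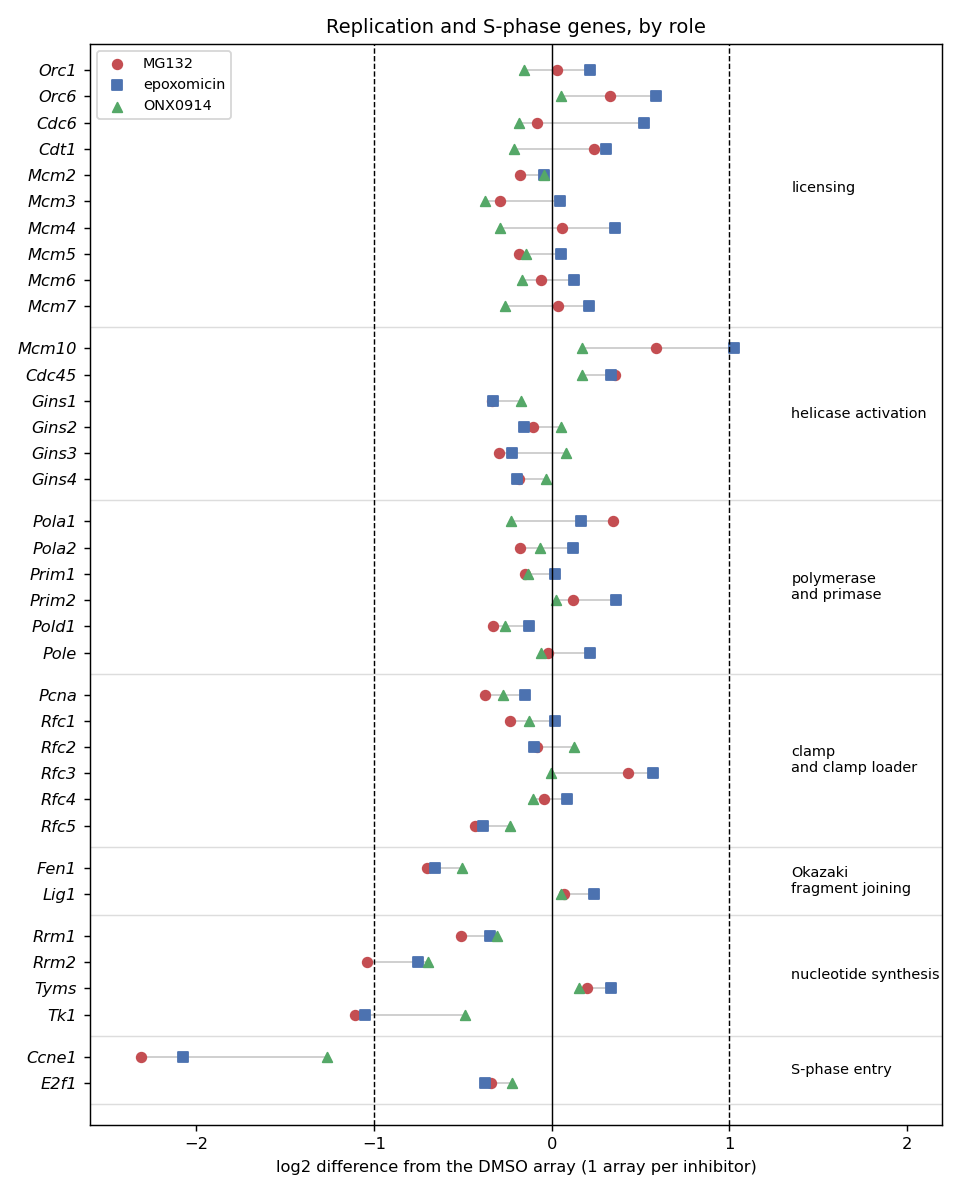
Log2 difference from the DMSO array (x axis) for the 36 genes measured on all arrays, grouped by role (y axis), with 1 point per inhibitor array; dashed lines mark a 2-fold difference. *Ccne1* lies farthest to the left, from −2.31 under MG132 to −1.26 under ONX0914, and *Mcm10* farthest to the right, at 1.02 under epoxomicin.

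*Ccne1*, the cyclin E gene detected here, was the lowest of the set with every inhibitor. Its probe (transcript NM_007633) gave signals of 8647 under DMSO, 1532 under MG132, 2077 under epoxomicin and 3507 under ONX0914. All inhibitor arrays were below the DMSO array, under MG132 lowest and ONX0914 nearest to it. The log2 differences were −2.31, −2.08 and −1.26, and they ranked 28th, 52nd and 112th from the lowest among all genes compared. The second probe of *Ccne1*, far dimmer, gave signals of 449, 85.5, 103 and 179 in the same order and differences of −2.21, −2.15 and −1.29. Both probes therefore put the arrays in the same order. *E2f1*, a transcription factor of S-phase genes, had signals of 8376, 5825, 6555 and 6997 and differences of −0.34, −0.37 and −0.22, smaller than those of *Ccne1*.

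Nucleotide synthesis held the other genes that were 2-fold lower. *Tk1*, the cytosolic thymidine kinase of the salvage pathway, had signals of 17802 under DMSO, 7271 under MG132, 8721 under epoxomicin and 12380 under ONX0914. The difference was −1.11, −1.05 and −0.48, so that it was past 2-fold on the MG132 and epoxomicin arrays and not on the ONX0914 array. With normexp it was −0.94 and −0.84 on the first 2 of these arrays, short of 2-fold, and with quantile normalization the epoxomicin value fell just short of 2-fold. *Rrm2*, the small subunit of ribonucleotide reductase, had signals of 52728, 22577, 31782 and 31637 and differences of −1.04, −0.75 and −0.70. Here the epoxomicin and ONX0914 arrays lay close together and the MG132 array lower, at −0.93 with normexp. *Rrm1*, the large subunit, had signals of 18856, 11638, 15052 and 14845 and differences of −0.51, −0.34 and −0.31, lower on each array than under DMSO, but less so than *Rrm2*. *Tyms*, thymidylate synthase, was the exception in this group, with signals of 313, 317, 400 and 340 and differences of 0.20, 0.33 and 0.16. Its direction depended on the background correction, since they were −0.32, −0.25 and −0.32 after normexp correction fitted on all spots, and above 0 in the other 9 alternatives. The median of the 4 genes was −0.77 under MG132, −0.55 under epoxomicin and −0.40 under ONX0914.

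**Figure D2:**
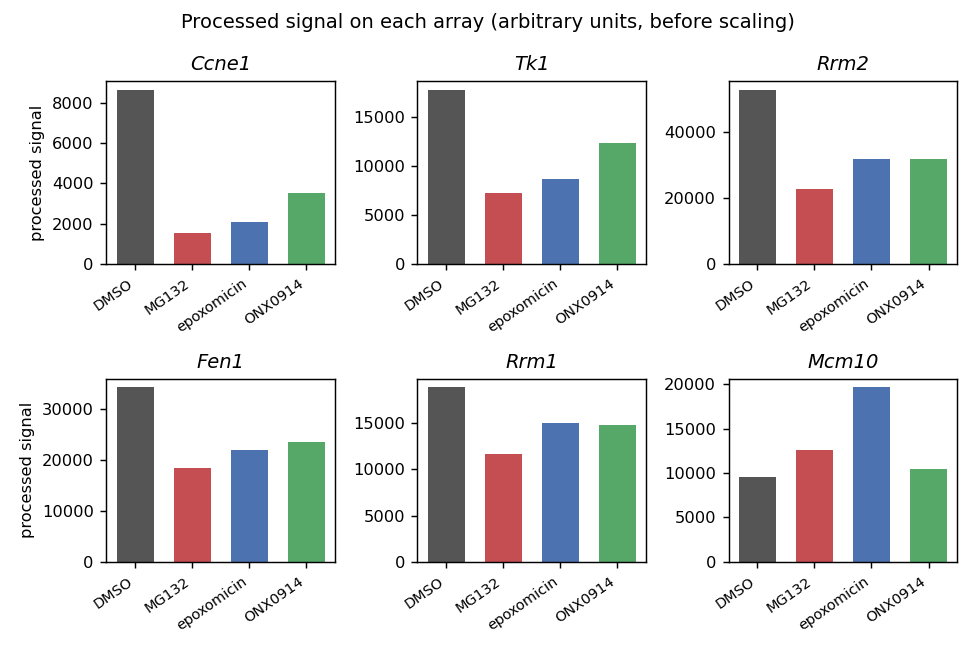
Processed signal before scaling (y axis, arbitrary units, starting at 0) on the DMSO, MG132, epoxomicin and ONX0914 arrays, 1 bar per array, for 6 genes. *Ccne1*, *Tk1*, *Rrm2*, *Fen1* and *Rrm1* were lower on every inhibitor array than on the DMSO array, and *Mcm10* was highest on the epoxomicin array at 19627.

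The licensing genes differed little from DMSO. Their median was −0.02 under MG132 (0.02 with normexp and 0.03 with the mean over probes), 0.21 under epoxomicin and −0.17 under ONX0914. None of the 10 was 2-fold away from DMSO on any array. Few of all genes were either, with 3.68%, 4.4% and 1.4% at least 2-fold lower and 7.24%, 8.48% and 3.27% higher. The Mcm2 to Mcm7 genes, which form the ring of the helicase, ranged from −0.29 to 0.06 under MG132, from −0.04 to 0.36 under epoxomicin and from −0.38 to −0.04 under ONX0914. *Mcm6* had signals of 94421 under DMSO, 79711 under MG132, 104381 under epoxomicin and 81925 under ONX0914, and *Mcm3* had 32992, 23724, 34559 and 24743. In both, the epoxomicin array was highest and lay near the DMSO array. *Mcm2* was at −0.18, −0.04 and −0.04, *Mcm4* at 0.06, 0.36 and −0.29, *Mcm5* at −0.18, 0.05 and −0.15, and *Mcm7* at 0.04, 0.21 and −0.26. The remaining 4 licensing genes were *Orc1* and *Orc6* of the origin recognition complex and the loaders *Cdc6* and *Cdt1*. *Orc1* was at 0.03, 0.21 and −0.15. *Orc6* had signals of 15167, 16752, 23149 and 15335 and a difference of 0.59 under epoxomicin, the highest of the group. *Cdt1*, whose protein is degraded once S phase begins, had differences of 0.24, 0.31 and −0.21. *Cdc6* had signals of 1606, 1336, 2333 and 1377 and differences of −0.08, 0.52 and −0.18, and its second probe gave 0.31, 0.79 and −0.40. The 2 probes of *Cdc6* thus disagreed in direction under MG132 and put it higher under epoxomicin.

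Among the helicase activation genes, *Mcm10*, which helps to activate the helicase, was the highest of the whole set under MG132 and epoxomicin. Its signals were 9516 under DMSO, 12574 under MG132, 19627 under epoxomicin and 10423 under ONX0914. The difference was 0.59 under MG132, 1.02 under epoxomicin and 0.17 under ONX0914, and the epoxomicin value lay just past 2-fold, ranging from 0.95 to 1.14 over the alternatives and short of 2-fold in 4 of them. *Cdc45*, which joins the active helicase, had signals of 505, 568, 645 and 554 and differences of 0.36, 0.33 and 0.17. After normexp correction fitted on all spots these were 0.03, 0.02 and −0.16, so that the sign changed under ONX0914. The 4 GINS genes, whose products complete the active helicase, were below DMSO on the MG132 array, from −0.34 to −0.11, and on the epoxomicin array, from −0.33 to −0.16. *Gins1* was the lowest of the 4 on both. Over all genes compared, 52.3% and 53.2% lay below DMSO on these arrays. After normexp correction fitted on all spots, *Gins2* under MG132 was at 0.02. On the ONX0914 array the GINS genes ranged from −0.17 to 0.08, with *Gins2* and *Gins3* above DMSO and *Gins1* and *Gins4* below it.

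On the probes that stood for them, the polymerase and primase genes stayed within 1.5-fold of DMSO on each array, with medians of −0.08, 0.14 and −0.10. So did 9934 of 13771, 9590 of 13864 and 12023 of 13790 genes over all genes compared. *Pola1*, the catalytic subunit of DNA polymerase α, had signals of 4807 under DMSO, 5366 under MG132, 5472 under epoxomicin and 3996 under ONX0914, and differences of 0.34, 0.17 and −0.23. It lay above DMSO on the first 2 of these arrays and below it on the ONX0914 array. *Pold1*, the catalytic subunit of polymerase δ, had signals of 17733, 12405, 16447 and 14386 and differences of −0.33, −0.13 and −0.26. *Prim1* and *Prim2*, the primase subunits, and *Pola2*, the accessory subunit of polymerase α, ranged from −0.17 to 0.36 over the 3 inhibitors. *Pole*, the catalytic subunit of polymerase ε, had differences of −0.02, 0.22 and −0.06 on its brighter probe. Its second, far dimmer probe gave 3.28, 0.49 and 0.33, so that the probes disagreed under MG132.

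Clamp and clamp loader genes had medians of −0.16, −0.04 and −0.12. *Pcna*, the sliding clamp, had signals of 79211 under DMSO, 53639 under MG132, 72414 under epoxomicin and 63817 under ONX0914, and differences of −0.38, −0.15 and −0.27. *Rfc1*, *Rfc2* and *Rfc4*, subunits of the loader, lay between −0.24 and 0.12 on every array, and the 2 probes of *Rfc4* gave like values. The loader subunits spread in both directions on the MG132 and epoxomicin arrays, from *Rfc5* at −0.43 and −0.39 to *Rfc3* at 0.43 and 0.57. *Rfc3* had signals of 1649, 1958, 2486 and 1598 and differences of 0.43, 0.57 and −0.01, so that its ONX0914 array was level with DMSO. *Fen1*, the nuclease that trims Okazaki fragments, had signals of 34297, 18545, 22025 and 23514 and differences of −0.70, −0.66 and −0.51, lower than DMSO on each array. *Lig1*, the ligase that joins the fragments, had differences of 0.07, 0.24 and 0.05.

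The nucleotide synthesis median lay below the licensing median on each inhibitor array, by −0.76 under MG132, −0.76 under epoxomicin and −0.22 under ONX0914. The polymerase and primase median differed from the licensing median by −0.07, −0.07 and 0.08. Over the alternative settings, the difference between nucleotide synthesis and licensing stayed from −0.81 to −0.67 under MG132, from −0.76 to −0.72 under epoxomicin and from −0.26 to −0.18 under ONX0914. These groups hold 4, 6 and 10 genes, and *Tyms* did not share the direction of the other 3 nucleotide synthesis genes. Members with a TTTNNCGC match had a median of 0.03 under MG132, 0.21 under epoxomicin and −0.17 under ONX0914 (13 genes), beside −0.29, −0.09 and −0.18 for the 16 without one. *Ccne1*, *Tk1*, *Rrm2*, *Rrm1* and *Fen1*, but also *Mcm10*, were among the genes without one. The *Mcm10* window ended inside a possible TTTGGCGC, whose last letter would fall outside it.

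The inhibitors were also compared with each other at equal dose and time, in 3 pairs. On the epoxomicin array 30 of 36 genes lay above the MG132 array, beside 51.6% of all genes compared. In the lists described below, 51 of 56 other replication genes and 25 of 30 G2 and mitosis genes did so too. The median difference was 0.17 over the 36 genes and 0.0069 over all genes. With the percentile over detected probes 29 members lay above, and with no scaling 36. All 10 licensing genes lay above the MG132 array, by 0.07 to 0.60. None of the 36 differed 2-fold, beside 1.52% of all genes. The licensing genes were higher in all 10 alternatives as well. The largest of these differences was in *Cdc6*, at 0.60, and the only polymerase gene on the other side was *Pola1*, at −0.18. Between ONX0914 and MG132 the members' median was 0.03, and 1 gene differed 2-fold, beside 4.11% of all genes. That gene was *Ccne1*, at 1.05, which was higher under ONX0914 than under MG132, and *Tk1* was next at 0.62. Between ONX0914 and epoxomicin the members' median was −0.17, beside 0.04 over all genes. All 10 licensing genes were lower under ONX0914 (9 after a shift to the median or in the authors' table), beside 45.5% of all genes. Of the other replication genes 41 of 56 were lower as well, but of the G2 and mitosis genes only 6 of 30. The licensing median was −0.45. No member differed 2-fold, beside 5.97% of all genes. In this pair *Ccne1* was at 0.81 and *Mcm10* at −0.85. The equal dose does not mean an equal degree of proteasome inhibition, which was not measured here.

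**Figure D3:**
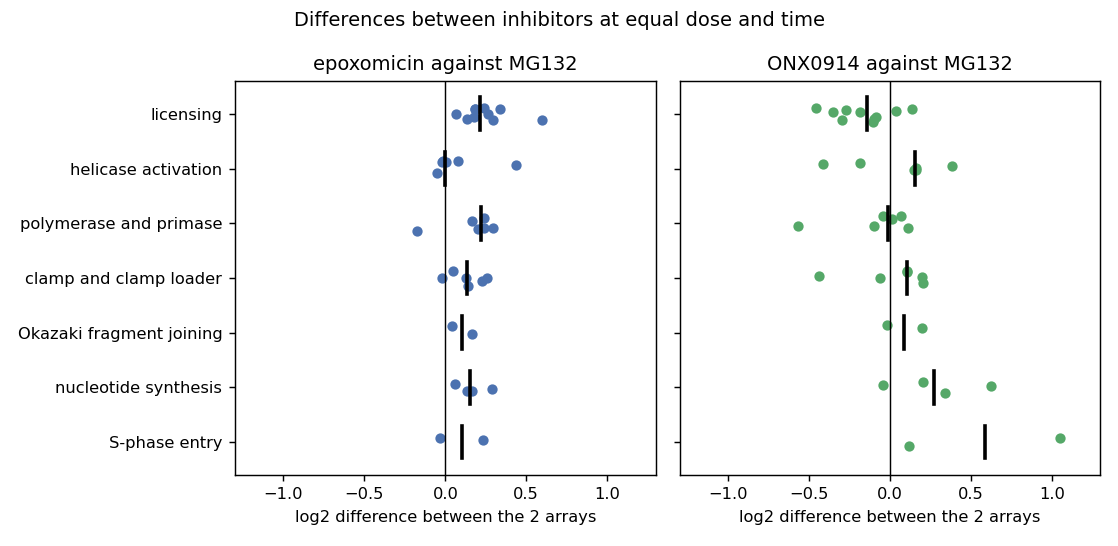
Log2 difference between inhibitor arrays (x axis) for the 36 genes by role (y axis), 1 point per gene with a bar at the median; left, epoxomicin minus MG132, right, ONX0914 minus MG132. All 10 licensing genes lie to the right of 0 in the left panel, beside 51.6% of all genes compared (not drawn). In the right panel *Ccne1* lies at 1.05.

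A list of 56 other replication genes had medians of −0.22 under MG132, −0.03 under epoxomicin and −0.23 under ONX0914. At 2-fold, 2, 0 and 1 of them were lower (3.57%, 0% and 1.79%, beside 3.68%, 4.4% and 1.4% of all genes). At the same threshold 2, 3 and 0 were higher (3.57%, 5.36% and 0%, beside 7.24%, 8.48% and 3.27%). *Orc4*, a subunit of the origin recognition complex, was at 1.11, 1.24 and 0.69, and *Hells*, a chromatin remodeler of the SNF2 family, at 0.68, 1.15 and 0.03. *E2f8*, an E2F factor that represses transcription, was lower at −1.04, −0.74 and −1.12, and *Rpa3*, a subunit of the single-strand binding protein, at −1.03, −0.86 and −0.42.

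The medians of the genes of G2 and mitosis lay below those of the replication genes. Over 30 genes they were −0.71 under MG132, −0.57 under epoxomicin and −0.36 under ONX0914, and 30, 29 and 30 of them lay below DMSO. Over all genes, 52.3%, 53.2% and 50.9% lay below DMSO. At least 2-fold lower were 6, 5 and 1 of the 30 (20.0%, 16.7% and 3.33%), beside 3.68%, 4.4% and 1.4% of all genes. *Plk1*, the polo kinase of mitosis, had signals of 23435 under DMSO, 5869 under MG132, 7359 under epoxomicin and 10370 under ONX0914 and differences of −1.81, −1.69 and −1.14. *Ccnb1*, cyclin B1, was at −1.50, −1.63 and −0.78, *Aurkb*, a kinase of chromosome segregation, at −1.71, −1.37 and −0.68, and *Cdk1*, the kinase partner of cyclin B, at −1.12, −0.95 and −0.38. *Anln* and *Ube2c*, which act in cytokinesis and in cyclin degradation, were at −1.18 and −1.05 under MG132. The median of the G2 and mitosis genes minus that of the 36 replication genes stayed below 0 in all alternatives, from −0.63 to −0.54 under MG132, from −0.69 to −0.59 under epoxomicin and from −0.24 to −0.20 under ONX0914.

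**Figure D4:**
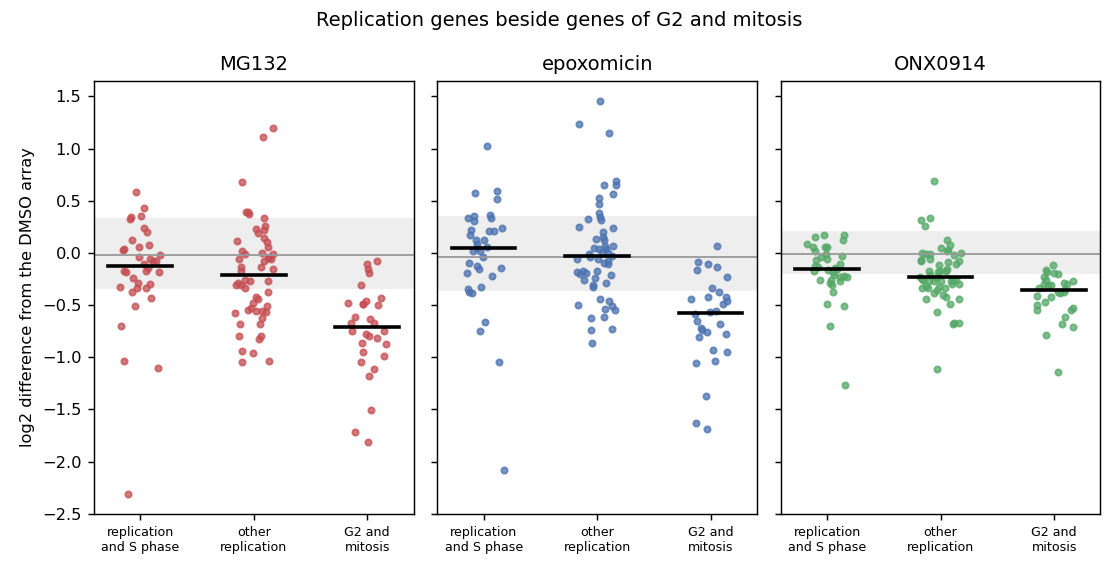
Log2 difference from the DMSO array (y axis) for the 36 replication and S-phase genes, 56 other replication genes and 30 G2 and mitosis genes (x axis), 1 panel per inhibitor and 1 point per gene; black bars are medians, the gray line and band the median and quartiles of all genes. The G2 and mitosis median is lowest in each panel, at −0.71, −0.57 and −0.36.

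The labelled cell type was checked against its markers. Of 8 macrophage markers, 7 had a probe and all 7 were well above background on all 4 arrays, with signals from 353 to 210824. Among 6 markers of other cell types, 4, *Epcam*, *Col1a1* and *Alb* among them, were not well above background on any array, while *Cd3e* (604 to 849) and *Pecam1* (140 to 191) were on all. The 7 macrophage markers ranged from −0.60 to 0.35 relative to DMSO under MG132, from −1.01 to 0.22 under epoxomicin and from −0.28 to 0.21 under ONX0914. *Lyz2* and *Spi1* were the lowest of them on the MG132 array (−0.60 and −0.52) and on the epoxomicin array (−1.01 and −0.97), and lay at 0.14 and 0.08 on the ONX0914 array. On the MG132 array *Itgam* was the highest at 0.35, and on the epoxomicin array *Ptprc* at 0.22. The part of these markers in the replication results was not tested. On the 4 arrays the 75th percentile signal ranged from 1448 to 1669, and from 60.3% to 63.1% of spots were well above background.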

How the data were processed

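RNA of J774 cells was hybridized to 4 single-color arrays, 1 per condition, which lay on 1 slide. The Methods name a human design, whereas the scanner headers give a mouse one (mm9), whose coordinates were left aside. From Feature Extraction 10.7.1.1 the authors deposited, per array, the intensity of each spot and 0 or 1 calls per spot, with no scaling between arrays. A further table of log2 values, from the same arrays, was deposited as well. Set against the scanner values, it was found to be log2 and centered on each probe's level over the arrays. Its column medians were −0.05 for DMSO, 0.02 for MG132, −0.02 for epoxomicin and 0.01 for ONX0914, and it served as an alternative.

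Outlier and control spots were left out. The 75th percentile of log2 intensity was taken over all non-control spots of an array (43020) and subtracted, and repeated spots were averaged. Of 39429 probes, 26581 (67.4%) were named through the RefSeq accession (GRCm38.p6), and the probe with the highest mean stood for a gene. Genes detected (well above background) on either array of a pair were compared. Undetected signals were replaced by a bound, which none of the 36 members needed. A 2-fold difference was counted, with no test. The steps were checked on simulated data.

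The members and lists were chosen with earlier results of these data known. The rule names all 37 members, and of the other lists at most 8 genes each, those at least 2-fold from DMSO with an inhibitor, ranked by the size of the difference, apart from some that are not reported here. Alternatives were normexp (offset 50, with and without outlier spots), a shift to the median, quantile normalization, the percentile over detected probes, no scaling, the authors' table, averaging the probes of a gene, signals in place of bounds, genes detected on all arrays, and 1.5-fold and 4-fold thresholds. Python 3.11.15, numpy 2.4.6, pandas 2.3.3 and limma 3.58.1 in R 4.3.3 were used.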

Additional observations from a re-analysis of the deposited data

Results flagged for a closer look

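The second probe of *Pole* (A_55_P2455460, transcript NM_011132), which did not stand for the gene, had signals of 20.0 under DMSO, 171 under MG132, 28.4 under epoxomicin and 24.5 under ONX0914. Its log2 difference from DMSO was 3.28 under MG132, 0.49 under epoxomicin and 0.33 under ONX0914. It was listed because a signal outside the values used for the genes stood above the DMSO array. The brighter probe of the same transcript gave −0.02 under MG132. Both probes were well above background on all 4 arrays. The cause was not tested.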

How the results depend on the processing

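No value at least 2-fold from DMSO changed sign under any alternative, while *Pole* with MG132 went from −0.02 to 1.63 with the mean over its 2 probes. Of 1080 values of single genes 902 moved by less than the spread between repeated spots and 178 by more. The sign was kept in all alternatives by 24 of 36 genes with MG132, 24 with epoxomicin and 25 with ONX0914. For the median of the 36 genes with MG132, a shift to the median gave −0.23 and no scaling −0.31. These settings gave −0.12 and −0.20 for licensing, −0.18 and −0.27 for polymerase and primase, and −0.88 and −0.96 for nucleotide synthesis. Normexp gave −0.67 for nucleotide synthesis with MG132, 0.33 for licensing and −0.41 for nucleotide synthesis with epoxomicin, and −0.069 for licensing with ONX0914. The members' median with epoxomicin was −0.03 after a shift to the median, and the licensing median with MG132 was 0.02 with normexp and 0.03 with the mean over probes. The median over all genes, as reported −0.02 for MG132, −0.04 for epoxomicin and −0.01 for ONX0914, was −0.20 for MG132 with no scaling, −0.12 for both MG132 and epoxomicin with a shift to the median, and −0.28, −0.30 and −0.17 with normexp. The number of genes at least 2-fold lower with MG132 was 1 with normexp and 1 at 4-fold, and the number higher was 1 with the mean over probes and 1 at 1.5-fold. With epoxomicin the number lower was 1 with quantile normalization, 1 with normexp, 4 at 1.5-fold and 1 at 4-fold. The number higher was 0 with a shift to the median, with the percentile over detected probes, with normexp without outlier spots, with the authors' table and at 4-fold, and 2 at 1.5-fold. With ONX0914 the number lower was 2 at 1.5-fold and 0 at 4-fold. The cause of these changes was not tested. No paired analysis was possible because each condition had 1 array, and no array could be left out. Precision is limited by 4 arrays, and *Ccne2* had no signal well above background.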
